A study of Mus musculus with 2 samples.

Results

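WNT proteins are secreted signals that bind Frizzled receptors, which stabilises beta-catenin and lets it work with LEF and TCF proteins at target genes. Cells limit the pathway with secreted proteins that bind the ligands, such as those of the SFRP family and WIF1, and with feedback genes such as Axin2. In the hair follicle, WNT signalling is known for its part in starting and sustaining the growth phase, and bulge stem cells are known for expressing several WNT inhibitors.

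Described here are 10 genes of this pathway, out of 31053 features measured: the antagonists Sfrp1, Dkk3, Wif1 and Apcdd1, the ligands Wnt3, Wnt4 and Wnt10a, the receptor Fzd7, and the response genes Axin2 and Lef1. They were taken by symbol, whatever their values, and all 10 had at least 1 UMI (a unique molecular identifier, which marks 1 captured transcript) in both libraries. The study has 1 group: hair follicle stem cells from the skin of wild-type C57BL/6;CD1 mice at postnatal day 32, in anagen, when follicles grow new hair. FACS selected cells by CD34, a surface protein of bulge cells, and by H2BGFP, a green fluorescent histone under the keratin 14 promoter, a promoter of basal keratinocytes. Both 10x Chromium libraries, called replicate 1 and replicate 2, carry the same labels, and nothing says that they came from separate animals. Library was a term in the main fits, so an overall difference between the libraries was removed. P-values therefore measure only the spread left after that, which is how unevenly states, or phases within states, differed across these libraries. That spread may be technical.

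After filtering, 3918 cells of replicate 1 and 3041 of replicate 2 remained, with median depths of 9955 and 9797 UMIs, and 3 barcodes occurred in both. Cells were assigned to follicle states by small sets of marker genes, none of them a member of this group of 10, and levels are UMIs summed over the cells of a state and library, scaled to a common total (CPM). The gates took 6195 cells and left 764 without a state. Of all kept cells, 493 lay within 0.05 of the gate's threshold, and in 442 the best list led the next by under 0.05. Marker lists also overlapped within cells: 68.7% of bulge cells also passed the Krtdap/Gm973 list, and 53.3% of Edn2/Dio3 cells the contractile list. The bulge gate (Krt24, Grem1, Calml3, Tgm5) held 23 cells in replicate 1 and 175 in replicate 2, and the Krtdap/Gm973 gate 105 and 529, so both came mostly from replicate 2. Gates for a Gdf10/Nppc state held 400 and 309 cells, for a Wfdc18/Pthlh state 1252 and 412, for a contractile state (Acta2, Tagln, Fgf5, Fbln5) 1104 and 790, and for an Edn2/Dio3 outer root sheath state 491 and 336. Smallest were the inner root sheath gate, with 49 and 27 cells, and the upper follicle gate, with 21 and 27.

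Of 7 bulge markers that no gate used, 5 were highest in the bulge gate in both libraries. Among them was Krt15, a keratin gene of bulge cells, at 17676 and 24297 CPM. Lgr5 and Sox9 were not highest there; Lgr5 was at 64.1 and 118 CPM in the bulge gate and at 154 and 198 CPM in the Gdf10/Nppc gate. Cells of the inner root sheath gate held little Krt5 and Krt14, 1200.5 and 1429 CPM together against at least 2861 in every other state. They also held Dcn, a fibroblast marker, at 509 and 745 CPM, while the 4 fibroblast markers together, Dcn included, reached 512 and 751 CPM there and at most 34.0 CPM in any other state. Col1a1, another fibroblast marker, was at 0.913 and 3.75 CPM there.

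Each of the 8 members that passed the filter on low counts differed between the 8 states. The test was edgeR's quasi-likelihood test on the state sums, joint over states, two-sided and adjusted over 11690 genes, where 51.6% of all genes were called at an adjusted p under 0.05. Adjusted p-values ran from 2.74e-09 for Wnt4 to 2.02e-04 for Axin2. Apcdd1 and Wnt3 were too scarce to be tested. A state was also set against the mean of the other states. In the bulge, 6 members were higher, against 9.49% of all genes, and 0 lower (7.07%). In the Krtdap/Gm973 state the counts were also 6 (8.76%) and 0 (3.31%). In the Gdf10/Nppc state 3 were higher (11.9%) and 1 lower (3.86%), and in the Wfdc18/Pthlh state 1 higher (11.5%) and 2 lower (4.94%). In the contractile state 0 were higher (14.1%) and 3 lower (8.19%), and in the Edn2/Dio3 state 2 higher (10.5%) and 3 lower (5.06%). The inner root sheath had 3 higher (14.6%) and 3 lower (12%), and the upper follicle 3 higher (6.96%) and 2 lower (3.91%). Because the inner root sheath and upper follicle held almost no Sfrp1 or Dkk3 and much Wnt4, they shift the mean that other states are set against. In a fit of the other 6 states, chosen after the data were seen, 7 members were tested and all 7 differed jointly, against 41.9% of all genes. In the bulge 6 were then higher (9.45% of all genes) and 0 lower (8.66%), in the Krtdap/Gm973 state 3 higher (9.19%) and 0 lower (7.72%), and in the Gdf10/Nppc state 2 higher (8.86%) and 0 lower (2.5%). In the Wfdc18/Pthlh state 0 were higher (11.8%) and 3 lower (9.02%), in the contractile state 0 higher (12.9%) and 4 lower (9.5%), and in the Edn2/Dio3 state 0 higher (7.24%) and 3 lower (4.97%).

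**Figure D1:**
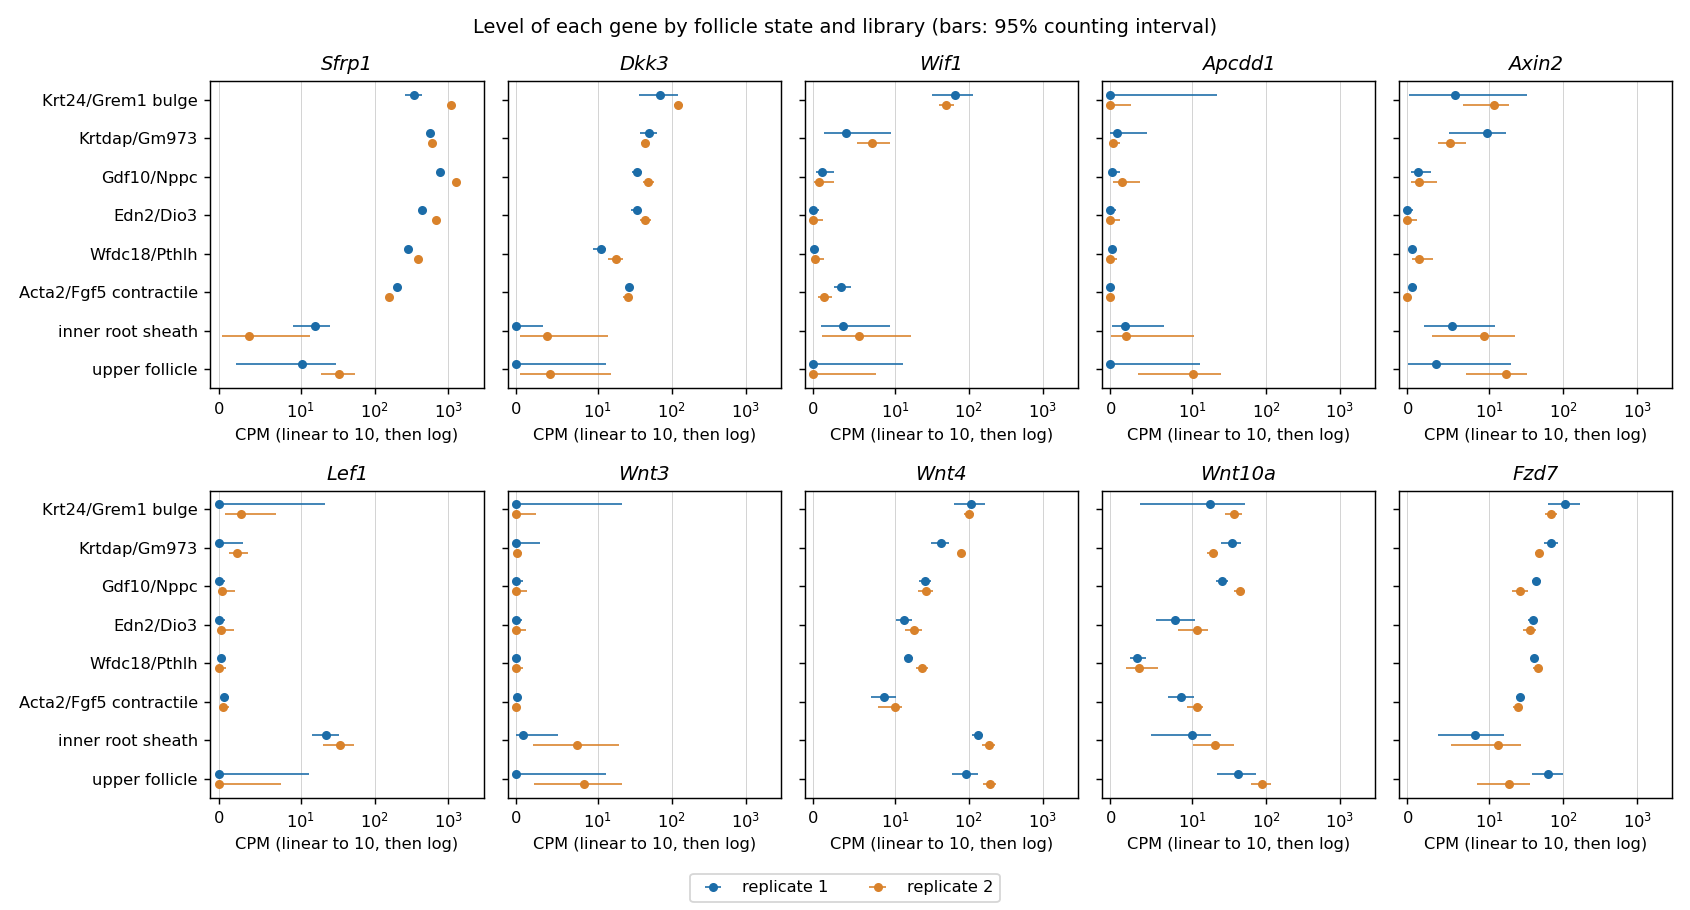
Level of each of the 10 genes (CPM, linear to 10 and then logarithmic) in the 8 follicle states, 1 point per library with its exact 95% Poisson interval, which covers counting error only. Sfrp1 spans from under 40 CPM in the inner root sheath and upper follicle to over 1000 CPM in replicate 2 of the Gdf10/Nppc and bulge states.

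Sfrp1, a secreted protein that binds WNT ligands, was abundant in 6 of the 8 states and nearly absent from the inner root sheath and upper follicle. Its level was 765 CPM in replicate 1 and 1249.7 in replicate 2 of the Gdf10/Nppc state, 338 and 1069 in the bulge, 555 and 593 in the Krtdap/Gm973 state and 432 and 672 in the Edn2/Dio3 state. These 4 states overlapped, each with its neighbour in the order of means. The libraries of the Wfdc18/Pthlh state, at 281 and 383 CPM, lay below the Edn2/Dio3 state and on either side of replicate 1 of the bulge. Those of the contractile state were lower, at 200 and 159 CPM. In the inner root sheath Sfrp1 was at 15.5 and 3.75 CPM and in the upper follicle at 10.4 and 33.2, from 19 UMIs each.

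Against the mean of the other states, Sfrp1 was higher in the Gdf10/Nppc state by 2.60 ± 0.22 (log2 fold change ± SE, edgeR's quasi-likelihood test, adjusted p = 5.62e-07). Among 6 states this difference was 1.30 ± 0.21 (adjusted p = 1.41e-03). It was lower in the inner root sheath by -4.66 ± 0.46 (adjusted p = 1.95e-06). The contractile state was not called against the mean of all others (log2 -0.25 ± 0.27, adjusted p = 0.587), but among 6 states it was lower, at log2 -1.67 ± 0.26 (adjusted p = 3.42e-04). The bulge value of 2.02 ± 0.25 (adjusted p = 1.88e-05) did not hold among 6 states, where it was 0.70 (adjusted p = 0.0584). The same held for the Krtdap/Gm973 state, with 1.61 and then 0.21 (adjusted p = 0.583), and for the Edn2/Dio3 state, whose call ended at 0.13 (adjusted p = 0.792). The Wfdc18/Pthlh value turned from 0.74 to -0.66 (adjusted p = 0.0675).

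After thinning each cell to 5000 UMIs, Sfrp1 was detected in 90.8% of Gdf10/Nppc cells of replicate 1 and 95.8% of replicate 2, and in 61.9% and 93.8% of bulge cells. The contractile state had 46.9% and 30.7%. Immune cells, which serve as a background of free RNA, had 0 of 9 cells with Sfrp1 in replicate 1, which allows a share of up to 33.3%, and 1 of 14 in replicate 2, at median depths of 10332 and 12247.5 UMIs.

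Dkk3, a secreted relative of the Dickkopf inhibitors, was highest in the bulge. It was at 70.0 and 123 CPM there, and the 2 libraries lay above both libraries of every other state. The value of replicate 1 came from 12 UMIs in 7 cells, 5 of them in 1 cell. Its 95% counting interval, 36.2 to 122 CPM, reaches below both libraries of the Krtdap/Gm973 state. The Krtdap/Gm973 state (48.7 and 43.5 CPM), the Gdf10/Nppc state (34.2 and 48.3) and the Edn2/Dio3 state (33.3 and 43.7) overlapped. The contractile state had 26.7 and 25.5 CPM, and the Wfdc18/Pthlh state 11.1 and 17.4. The inner root sheath and the upper follicle held 2 UMIs each. The bulge excess of Dkk3 was log2 2.98 ± 0.26 (adjusted p = 2.94e-07), and 1.87 ± 0.20 (adjusted p = 2.25e-05) among 6 states. Among 6 states Dkk3 was lower in the Wfdc18/Pthlh state, by -1.72 ± 0.18 (adjusted p = 1.48e-05), and in the contractile state, by -0.60 ± 0.15 (adjusted p = 0.0130). Its calls in 3 further states ended or turned among 6 states: 1.45 became 0.24 (adjusted p = 0.394) in the Gdf10/Nppc state, 1.46 became 0.20 (adjusted p = 0.460) in the Krtdap/Gm973 state, and 1.22 became -0.0038 (adjusted p = 0.997) in the Edn2/Dio3 state. Thinned detection of Dkk3 in the bulge was 23.8% and 40%, against 5.81% and 9.23% in the Wfdc18/Pthlh state and 0 of 23 immune cells in the 2 libraries. Before thinning, 2 of the 9 immune cells of replicate 1 held 1 UMI of Dkk3 each, and the immune cells of replicate 2 held 0. The first is 21.3 CPM, with a counting interval of 2.58 to 77.0 CPM. So a background of free RNA is not excluded for the lower states.

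**Figure D2:**
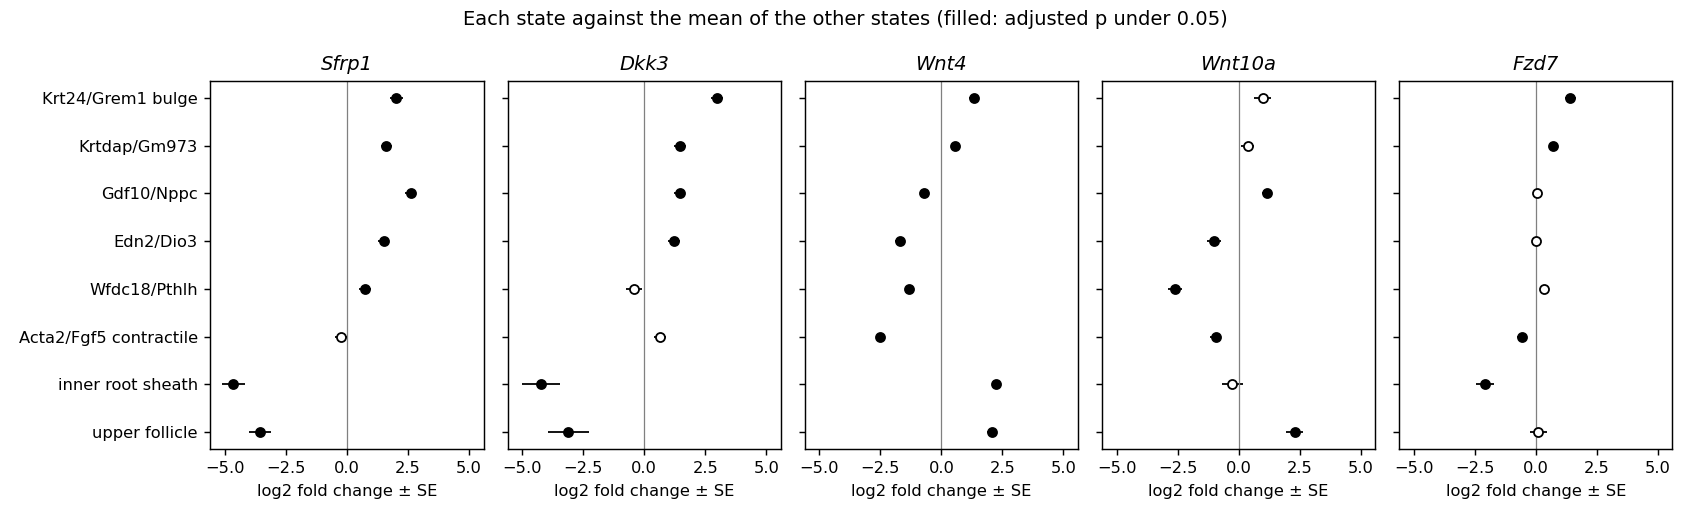
Log2 fold change (± SE) of each state against the mean of the other 7 states, for the 5 genes with UMIs in every state. Filled points passed an adjusted p of 0.05. The Sfrp1 and Dkk3 panels show the low inner root sheath and upper follicle beside positive values for most other states, and the Wnt4 panel has both of those states above 0.

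Wif1, a secreted inhibitor that binds WNT proteins directly, was highest in the bulge among the follicle states. It was at 64.2 and 49.6 CPM there, from 11 and 73 UMIs in 5 and 28 cells, above both libraries of every other state. The Krtdap/Gm973 state followed with 4.06 and 7.18 CPM, which overlapped the inner root sheath at 3.65 and 5.62. In the Edn2/Dio3 and upper follicle states no UMI of Wif1 was found, which allows up to 0.606 and 0.978 CPM in the first and up to 10.4 and 6.22 CPM in the second. Since 2 states had none, no fold change is given. The bulge (adjusted p = 6.29e-08) and the Krtdap/Gm973 state (adjusted p = 1.48e-03) were each called higher than the mean of the others by edgeR's quasi-likelihood test, and both calls held among 6 states (adjusted p = 5.76e-07 and 1.60e-03).

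Fibroblast-gated cells held more Wif1 than any follicle state, 667 and 148 CPM from 57 and 38 cells. That was 77.7% of all Wif1 UMIs in replicate 1 and 34.4% in replicate 2, and 2 cells of replicate 1 held 188 and 136 UMIs. In the contractile state, 38 of 43 UMIs of replicate 1 lay in 1 cell. The 4 fibroblast markers summed to 11.7 and 13.6 CPM in the bulge, near their level in most states. Thinned detection of Wif1 was 14.3% and 14.4% in the bulge, 2.94% and 2.35% in the Krtdap/Gm973 state and 0 of 23 in immune cells. Of the cells with Wif1, 52.6% in replicate 1 and 68.5% in replicate 2 also had Sfrp1, against 76.6% and 74.1% of all kept cells. These shares mix cell types. Of the cells with Wif1, 18 of 38 and 15 of 92 were fibroblast-gated, and of all fibroblast-gated cells 19 of 57 and 8 of 38 had Sfrp1. The shares within follicle states alone were not tested.

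Apcdd1, a membrane protein that inhibits WNT signalling at the receptor, was close to the limit of detection. It had 10 UMIs in replicate 1 and 26 in replicate 2. The upper follicle held 0 and 10.4 CPM, and no other state exceeded 1.87 CPM. The bulge, contractile and Edn2/Dio3 states had no UMI of Apcdd1 in either library. Detection over all follicle states was 0.158% ± 0.0078 (SD, n = 2 libraries).

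Wnt4, a ligand, was highest in the inner root sheath, upper follicle and bulge and lowest in the contractile state. It was at 131 and 185 CPM in the first, 90.4 and 191 in the upper follicle and 105 and 100 in the bulge. The upper follicle overlapped both of the others, while the inner root sheath lay above the bulge in both libraries. The Krtdap/Gm973 state followed at 41.4 and 79.2 CPM, then the Gdf10/Nppc state at 25.5 and 26.1. The Wfdc18/Pthlh state at 15.1 and 23.3 CPM overlapped the Edn2/Dio3 state at 13.3 and 17.9, and the contractile state was lowest at 8.63 and 9.93. These last 3 states lay below both libraries of the other 5.

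The log2 fold changes of Wnt4 were 2.24 ± 0.17 in the inner root sheath (adjusted p = 1.30e-07), 2.08 ± 0.22 in the upper follicle (3.43e-06) and 1.34 ± 0.21 in the bulge (2.29e-04). It was lower in the contractile state, by -2.51 ± 0.19 (adjusted p = 3.61e-08). Among 6 states the bulge value was 2.19 ± 0.20 (adjusted p = 6.38e-06) and the contractile value -1.86 ± 0.17 (adjusted p = 4.68e-06). The lower value in the Gdf10/Nppc state, -0.70 ± 0.18 (adjusted p = 0.0141), became 0.014 (adjusted p = 0.980) among 6 states. Thinned detection reached 54.3% and 57.7% in the inner root sheath and 38.1% and 32.5% in the bulge, against 4.23% and 4.86% in the contractile state and 0 of 23 immune cells. The inner root sheath also had the most cells in G2/M, the phases before and during division: 58.7% and 73.1% of its thinned cells, against 0% and 5% in the bulge. The part of cycling in its Wnt4 and Lef1 levels was not tested, since only 5 and 1 of its cells were non-cycling.

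Wnt10a, a ligand known from hair and tooth development, was highest in the upper follicle within each library, at 41.7 and 87.1 CPM. Next came the Gdf10/Nppc state with 25.5 and 43.6 CPM, the bulge with 17.5 and 36.7 and the Krtdap/Gm973 state with 34.1 and 18.9, all overlapping. The upper follicle value of replicate 1 came from 12 UMIs in 5 cells, 6 of them in 1 cell. Its counting interval, 21.6 to 72.9 CPM, covers the Gdf10/Nppc and Krtdap/Gm973 values of that library. The same value lies below the 43.6 CPM of the Gdf10/Nppc state in replicate 2, so these states overlapped. The Wfdc18/Pthlh state, at 3.26 and 3.52 CPM, lay below both libraries of every other state. The upper follicle was higher by log2 2.29 ± 0.35 (edgeR's quasi-likelihood test, adjusted p = 2.65e-04), the Gdf10/Nppc state by 1.16 ± 0.22 (1.20e-03), and the Wfdc18/Pthlh state was lower by -2.59 ± 0.29 (4.78e-06). The last 2 were 1.58 ± 0.22 (adjusted p = 6.24e-04) and -2.40 ± 0.30 (adjusted p = 6.02e-05) among 6 states. There the bulge was also called higher, at 1.45 ± 0.35 (adjusted p = 0.0116). Its value in replicate 1 came from only 3 UMIs in 2 cells, with a counting interval of 3.61 to 51.1 CPM. In that library it lay below the Gdf10/Nppc and Krtdap/Gm973 states. The lower values in the contractile and Edn2/Dio3 states, -0.94 and -1.02, were not called among 6 states, at -0.61 (adjusted p = 0.0788) and -0.72 (adjusted p = 0.121). Wnt10a was detected after thinning in 20% and 33.3% of upper follicle cells and in 1.41% and 2.82% of Wfdc18/Pthlh cells.

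Wnt3, a ligand, had 8 UMIs in replicate 1 and 36 in replicate 2, of which 5 and 24 lay in cells without a state. In replicate 1 the rest were 2 UMIs in the contractile state and 1 in the inner root sheath. In replicate 2 they were 4 in the inner root sheath (7.49 CPM), 4 in the upper follicle (8.30 CPM), 3 in fibroblast-gated cells and 1 in the Krtdap/Gm973 state. In the bulge, Gdf10/Nppc, Wfdc18/Pthlh and Edn2/Dio3 states no UMI of Wnt3 was found in either library.

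Fzd7, a Frizzled receptor, was highest in the bulge and lowest in the inner root sheath. It was at 105 and 68.6 CPM in the bulge, above both libraries of every other state by a narrow margin over the Krtdap/Gm973 state at 68.2 and 46.7. The bulge value of replicate 1 came from 18 UMIs in 9 cells, 6 of them in 1 cell. Its 95% counting interval, 62.2 to 166 CPM, covers the 68.2 CPM of the Krtdap/Gm973 state. The Wfdc18/Pthlh, upper follicle, Edn2/Dio3 and Gdf10/Nppc states had means between 34.6 and 42.9 CPM, and the upper follicle overlapped the other 3. The contractile state had 26.0 and 24.3 CPM and the inner root sheath 8.22 and 13.1. The bulge value of Fzd7 was log2 1.42 ± 0.24 (adjusted p = 4.24e-04), and 1.15 ± 0.21 (adjusted p = 1.96e-03) among 6 states. The contractile state was lower by -0.58 ± 0.18 (adjusted p = 0.0247), and by -0.92 ± 0.15 (adjusted p = 5.68e-04) among 6 states, and the inner root sheath by -2.07 ± 0.37 (adjusted p = 4.89e-04). The Krtdap/Gm973 value of 0.72 fell to 0.37 (adjusted p = 0.134) among 6 states. Fzd7 was detected in 1 of 9 and 1 of 14 immune cells after thinning, 11.1% and 7.14%. Contractile cells were at 11.7% and 12.7%. Without thinning, Fzd7 was at 21.3 and 16.4 CPM in immune cells, with counting intervals of 2.58 to 77.0 and 3.38 to 47.9 CPM. So few immune cells cannot place the contractile cells near that background or away from it.

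Axin2 and Lef1 are the response genes of the group. Axin2 encodes a scaffold of the complex that degrades beta-catenin and is a widely used feedback target, and Lef1 encodes a DNA-binding partner of beta-catenin. Their upstream sequences are shown because both were called higher in the inner root sheath and both genes are known targets or effectors of the LEF and TCF proteins. LEF and TCF proteins are known to bind sequences with the core CTTTG. The windows are the 250 bases before a RefSeq transcript start (GRCm38.p6, plus strand), Lef1 at chr3:131110047-131110296 and Axin2 at chr11:108920099-108920348, which end before the GENCODE gene bodies (Lef1 chr3:131110471-131224356, Axin2 chr11:108920349-108950783). Capitals mark the core CTTTG or its reverse complement CAAAG.
Lef1: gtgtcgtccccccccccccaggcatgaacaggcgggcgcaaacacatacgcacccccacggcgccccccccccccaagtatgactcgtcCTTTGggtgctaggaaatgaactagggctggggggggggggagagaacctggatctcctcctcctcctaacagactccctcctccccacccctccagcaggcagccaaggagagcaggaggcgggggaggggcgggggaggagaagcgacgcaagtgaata
Axin2: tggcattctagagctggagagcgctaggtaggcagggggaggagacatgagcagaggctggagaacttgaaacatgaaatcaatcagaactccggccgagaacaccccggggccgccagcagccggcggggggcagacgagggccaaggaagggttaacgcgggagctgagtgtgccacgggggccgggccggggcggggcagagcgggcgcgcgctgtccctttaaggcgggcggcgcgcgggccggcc
The Lef1 window printed, the first of 4 by position, held 1 core (the other 3 held 2, 1 and 3) and the Axin2 window 0, and 48.6% of all 32851 RefSeq windows held at least 1. Windows were at hand for 6 members (Fzd7, Lef1, Wnt4, Wif1, Wnt3 and Axin2), 9 in all. On both strands, the longer motifs CTTTGAA and CTTTGAT, which both contain the core, occurred in 0 of the 6 members' windows, against 4.46% and 3.21% of all windows. Of CTTTGTT and CTTTGTA (5.03% and 3.20% of all windows), the first occurred in the Fzd7 window and the second in 1 of the Lef1 windows. A match is a description of letters, and its absence says only that these letters are not in the window.

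Axin2 was low throughout and split the states into those with several CPM and those near 0. The upper follicle had 3.48 and 16.6 CPM, the bulge 5.83 and 11.5, the Krtdap/Gm973 state 9.74 and 5.22 and the inner root sheath 5.48 and 9.36, and all 4 overlapped. The Gdf10/Nppc state had 1.33 and 1.43 CPM, and the contractile state 0.565 and 0. In the Edn2/Dio3 state no UMI of Axin2 was found in 491 and 336 cells, which allows up to 0.606 and 0.978 CPM. The value of replicate 1 rests on 1 UMI in the bulge and on 1 in the upper follicle. Because of the state without UMIs, no fold change is given. Axin2 was called higher in the bulge (adjusted p = 8.37e-03), the Krtdap/Gm973 state (adjusted p = 0.0177), the inner root sheath (adjusted p = 0.0378) and the upper follicle (adjusted p = 0.0316), and lower in the Edn2/Dio3 state (adjusted p = 4.24e-03). The bulge, Krtdap/Gm973 and Edn2/Dio3 calls held among 6 states (adjusted p = 2.21e-03, 2.63e-03 and 0.0232). Of the 4 states where Axin2 was called higher, Wif1 was also called higher in the bulge and Krtdap/Gm973 states, whose marker lists overlapped within cells. In the other states it was not: the inner root sheath had an adjusted p of 0.0664 by edgeR's quasi-likelihood test, and the upper follicle had 0 UMIs of Wif1.

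The level of Lef1 was highest in the inner root sheath, at 21.9 and 33.7 CPM, from 24 and 18 UMIs in 11 and 7 cells, which was 42.9% and 20.7% of its UMIs. No other state exceeded 2.72 CPM in either library. The upper follicle had none, which allows up to 10.4 and 6.22 CPM. Its excess there was called (adjusted p = 1.85e-06), and the other states were not called in either direction. Cells without a state held 11 and 42 of the 56 and 87 Lef1 UMIs, of which 13 in replicate 2 lay in 1 cell. Cells with Lef1 were deep, with medians of 19300 and 17520 UMIs. After thinning, 10.9% and 7.69% of inner root sheath cells had Lef1, against 0.381% ± 0.152 (SD, n = 2 libraries) of cells of all states. Of the cells with Lef1, 29.6% in replicate 1 and 25% in replicate 2 also had Axin2, which was 17.8% and 15.1% of the cells with Axin2. Of all kept cells, 45 of 3918 and 86 of 3041 had Axin2. Cells with Axin2 were also deep, with medians of 13831 and 14197 UMIs, and these shares mix cell types. The part of depth and cell type in this overlap was not tested.

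**Figure D3:**
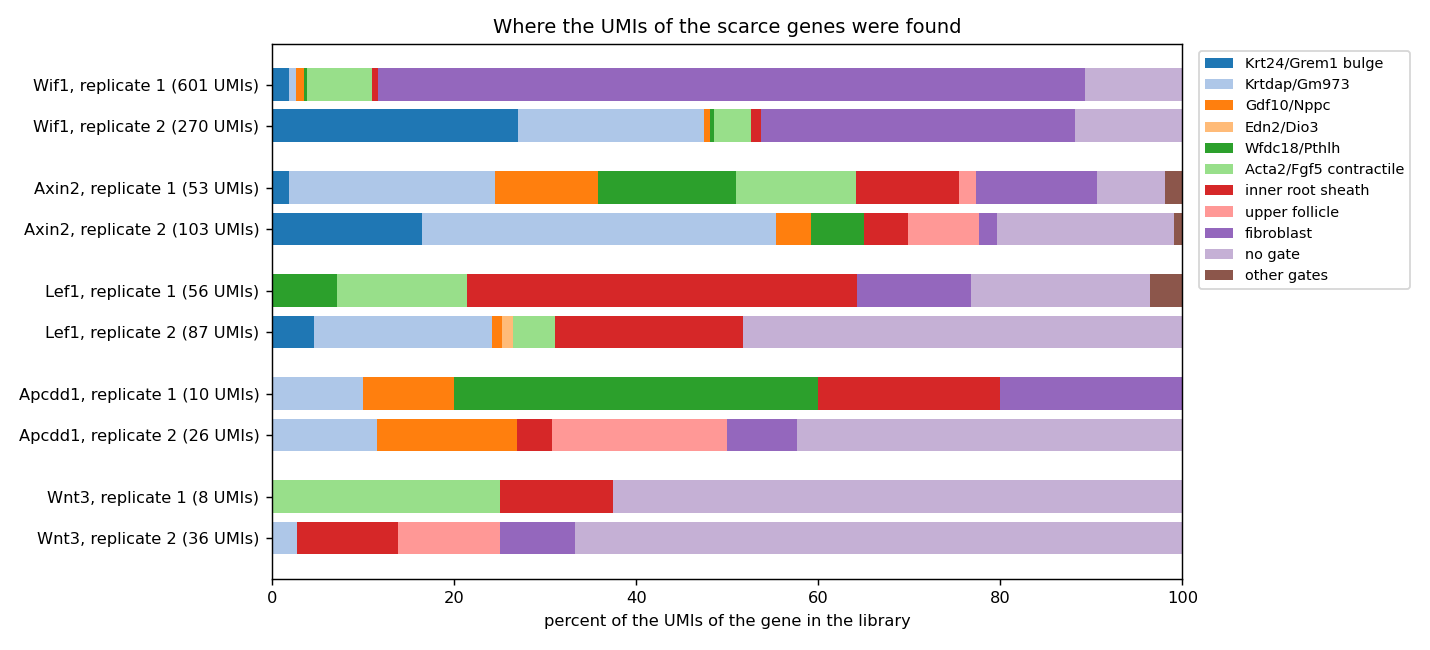
Share of the UMIs of the 5 scarce genes (percent of the gene's UMIs in a library) by gate, 1 bar per gene and library. Most Wif1 UMIs of replicate 1 lie in the fibroblast gate (77.7%), and the inner root sheath holds 42.9% and 20.7% of the Lef1 UMIs.

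Cell cycle classes were compared within the 3 states with at least 20 non-cycling, S-phase and G2/M cells in both libraries, the Wfdc18/Pthlh, contractile and Edn2/Dio3 states. Of the members, 5 were abundant enough to be tested among 8631 genes. In S phase, when DNA is copied, 0 of 5 were called by edgeR's quasi-likelihood test, against 13.9% of all genes. By that test 0 of 5 had an unadjusted p under 0.05, against 2325 of all 8631 genes. DESeq2 also called 0, against 12% of all genes. In G2/M, Wnt10a alone was called, 1 of 5 against 36.8% of all genes.

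Wnt10a was lower in G2/M by log2 -0.67 ± 0.22 (adjusted p = 0.0174). In the contractile state it was at 11.1 and 14.0 CPM in non-cycling and 7.48 and 9.67 in G2/M cells, and in the Wfdc18/Pthlh state at 4.57 and 5.08 against 1.84 and 0.848. In the Edn2/Dio3 state the classes overlapped, at 9.80 and 6.66 CPM against 10.0 and 7.40. The call was lost without replicate 1 (-0.65, adjusted p = 0.305), without replicate 2 (-0.68, adjusted p = 0.105), and with 1 marker more required for a phase (-0.53, adjusted p = 0.264). That last setting left only the contractile state with enough cells, so it changed the states as well as the phases. Of all genes, 16.8%, 23.8% and 16.6% were called in G2/M under these settings, against 36.8% in the main fit.

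Sfrp1 had a log2 value of 0.038 ± 0.13 in G2/M (adjusted p = 0.853) and of -0.17 ± 0.14 in S (adjusted p = 0.460). With 1 marker more required, and so in the contractile state alone, its G2/M value was 0.49 and was called (adjusted p = 6.12e-03). Dkk3, Wnt4 and Fzd7 had G2/M values of 0.15 ± 0.18, 0.033 ± 0.23 and 0.27 ± 0.14, and S values of -0.085 ± 0.24, -0.32 ± 0.33 and -0.046 ± 0.20, none of them called. Whether the phase differences depended on the state was tested with an interaction term, which called 0 of 5 members (1.26% of all genes). Of these, 2 had an unadjusted p under 0.05, Wnt4 (adjusted p = 0.360) and Fzd7 (adjusted p = 0.471), as had 876 of all 8631 genes. Free RNA can enter such phase calls, and its part was not tested.

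Among 83 other genes of the pathway, 57 could be tested and 45 differed jointly between states (51.6% of all genes did). By role, called of tested were 6 of 9 antagonists and feedback genes, 6 of 6 ligands, 2 of 2 secretion genes, 11 of 14 receptors, 1 of 1 agonists, 4 of 9 core genes, 10 of 11 nuclear genes and 5 of 5 response genes. In the bulge, 14 of the 57 were called higher (9.49% of all genes) and 2 lower (7.07%), with a median log2 fold change of 0.23 against -0.0062 over all genes. In the inner root sheath 11 were higher (14.6%) and 16 lower (12%), with a median of -0.28 against -0.027. Sostdc1, a marker of the Krtdap/Gm973 gate, is among the 45 and among the 6 antagonists and feedback genes. It is also among the 14 higher in the bulge and the 16 lower in the inner root sheath. The gating bears on its differences between states, so its part in these counts is no finding.

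Trabd2b was highest in the bulge in both libraries and Shisa2 by its mean. Shisa2, which holds Frizzled receptors back from the surface, was at 175 and 220 CPM in the bulge, which overlapped the Krtdap/Gm973 state at 195 and 121, against 10.0 and 1.87 in the inner root sheath. Trabd2b, a WNT-inactivating protease also called Tiki2, was at 117 and 103 CPM in the bulge and at 4.56 and 1.87 in the inner root sheath. Sostdc1, an antagonist of WNT and BMP signals, reached 1007 and 895 CPM in the Krtdap/Gm973 state, but it is 1 of the markers of that gate, so this level is no finding.

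Ligands, receptors and the secretion gene Porcn had other peaks. Porcn, the enzyme that adds the lipid WNT proteins need, was highest in the contractile state at 50.2 and 80.8 CPM and at 3.75 and 3.76 in the Wfdc18/Pthlh state. The receptors Fzd4 (37.8 and 40.9 CPM) and Ror2 (32.9 and 41.4 CPM) also peaked in the contractile state, where Wnt4 was lowest. The agonist Rspo1 (40.9 and 50.4 CPM) and the ligand Wnt5b (31.1 and 42.6 CPM) peaked in the Gdf10/Nppc state. The receptor Lgr5 was highest there by its mean, at 154 and 198 CPM. It overlapped the Edn2/Dio3 state at 151 and 169 CPM and the contractile state at 134 and 155. Fzd2 was at 186 and 240 CPM in the Gdf10/Nppc state and at 163 and 249 in the bulge, which overlapped. Wnt5a was highest in the inner root sheath at 25.6 and 28.1 CPM. Tle1, a corepressor of TCF proteins, was highest in the upper follicle at 55.7 and 64.3 CPM. In G2/M, 0 of 42 tested pathway genes were higher (16.8% of all genes) and 9 lower (20%), among them Porcn at log2 -1.17 ± 0.17 (adjusted p = 4.63e-06).

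The genes most alike each member over the 16 state sums (8 states in each of 2 libraries, each library centred on its own mean) were found among 5342 genes. The value is Pearson's r of log2 levels, given as a description, since sums of 1 library share that library and neighbouring states share markers. For Sfrp1 they were Shisa2 (r = 0.946), Mpzl1 (0.931) and Mapk3 (0.930). For Dkk3 they were Sorl1 (0.977), Postn (0.964) and Egfl6 (0.959), and for Fzd7 C1qtnf12 (0.936), Mtmr11 (0.916) and Rragc (0.897). For Wnt4 they were Ppp1r14b (0.957), Eef1a1 (0.943) and Rplp0 (0.943), and for Wnt10a Clip1 (0.920), Pawr (0.885) and Cav2 (0.849). For Wif1 (Egln1, Stk19 and Pole4, 0.851 to 0.861) and Lef1 (Ddx18, Rpf2 and Metap2, 0.923 to 0.941), the member itself was near 0 in most sums. Sfrp1 and Shisa2 were both lowest in the inner root sheath and upper follicle, and next lowest in the contractile state. In the Gdf10/Nppc state their means were 1007 and 102 CPM, and in the Wfdc18/Pthlh state 332 and 137, so their orders differed there. How much of r rests on the lowest states was not tested.

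The mean number of the 10 genes found in a cell was highest in the bulge in both libraries. In replicate 1 the margin was narrow and rested on 21 bulge cells, against 102 Krtdap/Gm973 cells. These means were not tested. After thinning, a bulge cell held on average 1.67 of them in replicate 1 and 2.40 in replicate 2, a Krtdap/Gm973 cell 1.60 and 1.73 and a Gdf10/Nppc cell 1.53 and 1.63. Contractile cells held 0.806 and 0.665, and immune cells 0.111 and 0.143.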

How the data were processed

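The deposited matrices hold raw UMI counts per gene and barcode, without normalization; per the submitters' processing notes they come from Cell Ranger 3.1.0 on mm10, with Seurat 3.1 used later. Barcodes were kept from 1000 detected genes upwards where mitochondrial UMIs made up 10% or less. A cell's state was its highest marker list: the mean log counts per 10000 over the list, 0 unless 2 markers had a UMI, divided by the mean of the 20 highest cells, and at least 0.25. This rule was chosen after 18 settings had been compared by cells per state and marker levels, before member levels were read. It was the 1 setting with at least 20 cells per library in all 8 states. At the other 17, the bulge held 7 to 22 and the upper follicle 8 to 23 cells in replicate 1.

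Phases came from cells thinned to 5000 UMIs: G2/M with at least 3 of 10 markers, S with at least 4 of 10 (taken over 3 after seeing class sizes) and at most 1 G2/M marker, non-cycling with 0 G2/M and at most 1 S marker. Scrublet (scanpy 1.11.5) called 0 doublets automatically, and no doublets were removed. Counts were summed per state and library and fitted with edgeR 4.0.16 (R 4.3.3; TMM, filterByExpr, library as a term; DESeq2 1.42.0 as an alternative), with Benjamini-Hochberg adjustment over all genes; scripts were tested on simulated data. An SE is the log2 fold change over the square root of F. Shares carry exact Clopper-Pearson 95% intervals in the tables; intervals and floors (3 counts) cover counting error only. All 10 members are named; other pathway genes are named with at least 20 CPM in both libraries of a state, a joint call, and 1 of the 12 widest ranges over states. The members and lists were chosen with earlier results of these data known. Free RNA was not removed. Gene positions are from GENCODE M21 (GRCm38).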

Additional observations from a re-analysis of the deposited data

How the results depend on the processing

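Jointly between states, 8 members were called, 10 with no filter on low counts (which tests all 10), 7 with the stricter gate, outside S and G2/M and among 6 states, and 8 under the other alternatives. Of all genes tested, 51.6% were called jointly, 32.7% with no filter, 45.2% with the stricter gate, 40.9% outside S and G2/M, 41.9% among 6 states, 37.1% without the replicate block and 50.8% to 55.1% under the others. The stricter gate left 5 states (not the bulge, inner root sheath or upper follicle), cells outside S and G2/M 6 (not the inner root sheath or upper follicle), and a minimum of 2000 genes 6 (not the bulge or upper follicle), so these settings changed the states as well. Without the replicate block, 8 were called jointly; the contrasts of Wnt4 and Sfrp1 in 1 state each lost their calls (Wnt4 in the Gdf10/Nppc state, -0.76, adjusted p = 0.127; Sfrp1 in the Wfdc18/Pthlh state, 0.75, adjusted p = 0.196), and so did 4 others. Of the 38 state contrasts called, Axin2 in the Edn2/Dio3 state had no UMI and is left out here. For the other 37, of 320 tested values under the alternatives, 274 kept direction and call, 39 lost the call and 7 turned. Leaving out 1 library leaves no residual degrees of freedom in the state fit, so those 74 values have no test, and 0 of them turned. Wnt4 in the Gdf10/Nppc state turned to 0.61 with the stricter gate, 0.069 outside S and G2/M, and 0.014 among 6 states. Sfrp1 in the Wfdc18/Pthlh state turned to -0.52, -0.68 and -0.66 under the same 3. Dkk3 in the Edn2/Dio3 state turned to -0.0038 among 6 states. The cause was not tested beyond the removal of states.

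Requiring 1 marker more left 1 state for the phases (contractile), and 1 marker fewer left 4 (with Gdf10/Nppc added), so these settings changed the states too. In S phase, 1 marker fewer gave 1 call instead of 0 (14.8% of all genes). Leaving out replicate 1 or replicate 2 gave 0 calls in S (3.27% and 7.08% of all genes). In G2/M, no filter on low counts gave 2 calls instead of 1 (18.1% of all genes). Leaving out replicate 1 or replicate 2 gave 0 calls in G2/M (16.8% and 23.8% of all genes). Values not called that turned were, in S with 1 marker more, Sfrp1 0.15, Dkk3 0.45, Wnt4 0.55 and Wnt10a 0.13; Dkk3 with 1 marker fewer, 0.0011; in G2/M, Wnt4 without high doublet scores, -0.17, and with 1 marker fewer, -0.090. Between leaving out replicate 1 and replicate 2, S values ran from -0.33 to 0.090 for Dkk3 and from -0.25 to 0.32 for Fzd7. G2/M values ran from -0.058 to 0.12 for Sfrp1, from -0.23 to 0.40 for Dkk3 and from -0.23 to 0.44 for Wnt4.

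Detection shares depend on depth. At 5000 UMIs, 3000 UMIs and unthinned, the mean share of follicle-state cells was 64.2%, 54.5% and 76.1% for Sfrp1, 14.1%, 8.75% and 24.4% for Dkk3, 16.4%, 10.5% and 29.3% for Fzd7, 0.885%, 0.354% and 1.82% for Axin2, and 0.158%, 0.131% and 0.313% for Apcdd1. Unthinned shares were 0.890% for Lef1, 19.8% for Wnt4 and 12.3% for Wnt10a.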
